A study of Mus musculus with 24 samples.

Results

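Genes of ribosome biogenesis and genes widely listed as targets of the transcription factor MYC were followed through 4 RNA-seq tables of mice. In the knockouts a gene cluster encoding let-7a, let-7f and let-7d was deleted in alveolar type 2 (AT2) cells. These are the surfactant-making epithelial cells of the lung. The 32 genes were taken by name from a fixed list, which was chosen with earlier results of these data known. Each was found once among the 24970 gene symbols of each table. Controls had the genotype Sftpc-CreER/+; R26-tdT/+, and knockouts had let7afd-/-;Sftpc-CreER/+; R26-tdT/+, so both carried a tamoxifen-dependent Cre driven from the surfactant gene Sftpc and a tdTomato reporter, and both received tamoxifen. Flow-sorted AT2 cells were taken after 6 days of tamoxifen (3 control and 3 knockout libraries, each a pool of 3 mice), and whole lungs after 6 days (3 and 3 mice) or after 6 months with booster doses (4 and 4 mice). AT2 organoids were grown for 14 days in AMM medium from cells of mice given tamoxifen for 6 days (2 and 2 mice). The labels used here give neither ages nor sexes. In whole lung the Sftpc promoter restricts the deletion to a fraction of the cells, so a whole-lung value mixes cells with and without the deletion. In all 4 tables fewer cells of a type and less RNA per cell cannot be told apart.

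Ribosomes are assembled in the nucleolus, where RNA polymerase I transcribes the ribosomal DNA, small nucleolar ribonucleoproteins (snoRNPs) modify and fold the transcript, and separate sets of assembly factors build the small and the large subunit. MYC binds E-box sequences in many of these genes and drives them together with genes of translation initiation and of polyamine, pyrimidine and serine-glycine metabolism. The let-7 microRNAs repress messenger RNAs that carry matches to their seed in the 3′ UTR, and Myc is among the targets known for this family. In the adult lung AT2 cells are mostly quiescent, and they raise growth and biosynthetic genes when they divide to repair the alveolus.

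The 3 deleted microRNAs are encoded within a short stretch of chromosome 13, on the minus strand, at chr13:48538239-48538260 (let-7a), chr13:48537889-48537910 (let-7f) and chr13:48536078-48536099 (let-7d) in GRCm38.p6. Their mature RefSeq sequences are shown because they define the sites searched for in the members, and the capitals mark the seed, bases 2 to 8, which is the same in all 3.
mmu-let-7a-5p: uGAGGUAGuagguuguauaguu
mmu-let-7f-5p: uGAGGUAGuagauuguauaguu
mmu-let-7d-5p: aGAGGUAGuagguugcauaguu
No library listed a value above 0 for the precursor genes (Mirlet7d, Mirlet7a-1, Mirlet7f-1). Mature microRNAs carry no poly(A) tail and are not captured by this protocol, so the deletion cannot be checked in these tables.

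The longest annotated 3′ UTR of each gene (GENCODE M21, GRCm38, at least 50 bases) was searched on the transcribed strand for CTACCTC and TACCTCA, the 7-base matches to the seed, which overlap in an 8-base match that holds both. Of the 32 members 1 held such a match (3.12%), against 3044 of 19806 genes of the tables (15.4%). No member held the 8-base match, which was present in 3.16% of those genes. Neither share was matched for 3′ UTR length, which ran from 79 bases (Rrp9) to 8379 bases (Wdr12) in the members. The match was in Rrp12, a small-subunit export factor on the minus strand of chr19:41862851-41896173, at base 222 of a 356-base 3′ UTR, and it is printed with its flanks as the only one among the members, the match in capitals.
Rrp12: atgtgacgtcgCTACCTCtgagaaggcct

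RefSeq promoters (GRCm38.p6, 250 bases before to 50 after a gene's start) were found for 26 of the 32 members; Npm1, Srm, Bop1, Fbl, Tcof1 and Rrp12 were not among them. The E-box CACGTG, which reads the same on both strands, stood in the promoter of 8 of these 26 genes (30.8%) and in 8.09% of 27025 genes with a promoter. The related CACGCG, searched on both strands with overlapping matches counted once per promoter, stood in 12 of the 26 (46.2%), against 10.5% of all genes. The E-box genes were Eif4a1, Pes1, Mybbp1a, Eif4e, Nop2, Utp20, Ipo4 and Hspd1. The members include genes listed as MYC targets, and the shares over all genes were not matched for expression or base composition. A match of these letters describes the sequence and is no evidence of binding. A second E-box of Eif4e, 228 bases before the start (chr3:138527018-138527085, plus), is not printed. Below is an E-box, in capitals with its flanks, for each of the 4 E-box genes with the smallest p in AT2 cells. That of Eif4a1 begins 189 bases before the start (chr11:69672567-69672652, minus strand), that of Pes1 at base 3 after it (chr11:3963953-3963982, plus), that of Mybbp1a at base 41 after it (chr11:72441343-72441372, plus) and that of Eif4e 64 bases before one of its starts (chr3:138527164-138527249, plus).
Eif4a1: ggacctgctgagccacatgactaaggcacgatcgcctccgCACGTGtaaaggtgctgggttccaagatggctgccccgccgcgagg
Pes1: ggtccttcagggccctaggcagggCACGTG
Mybbp1a: ctggaagtgactgtcttctgagccCACGTG
Eif4e: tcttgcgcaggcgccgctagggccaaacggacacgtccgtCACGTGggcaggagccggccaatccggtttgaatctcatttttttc
The flanks differ from gene to gene, and the Pes1 and Mybbp1a motifs lie inside the transcribed part.

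Values are TPM, a transcript's share of its library corrected for length. They hold no read numbers, and how deeply each library was sequenced is unknown. Fold changes are differences of log2(TPM + 1), knockout minus control, with the standard error of the limma fit, and they understate changes of genes with low TPM. A gene passed at an adjusted p under 0.05 over all genes tested in its table, and all 32 members met the filter on low values in every table. The p-values measure the spread between these mice or pools of mice. The 4 tables were normalized separately, so levels set across them are descriptions. The libraries held 11814 to 14175 genes at 1 TPM or more. AT2 identity was clear in the sorted cells, where Sftpc took 14.2 to 15.5% of TPM in controls and 8.53 to 12.9% in knockouts. In organoids it took 2.82% and 0.694% in controls and 5.96% and 5.14% in knockouts. AT2 knockout 1 stood apart with 14.3% of its TPM in ribosomal protein genes, against 7.84 to 9.14% in the other 5 AT2 libraries. In the lungs at 6 days knockout 3 held 12.6% haemoglobin transcripts against 1.40 to 6.54% in the others, and organoid control 2 held 23.4% ribosomal protein transcripts against 19.6 to 19.8%.

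In sorted AT2 cells the members lay on the high side of the controls as a group, but none passed the test over all genes. All 32 had a positive log2 fold change, or 28 under median-ratio scaling, quantile normalization or rescaling without the 50 most abundant genes. The median was 0.27 and the range 0.04 to 0.56, while the median over the 12109 genes tested was 0.08 and 63.5% of them were positive. By limma with Benjamini-Hochberg adjustment, 0 of 32 members passed as higher and 0 as lower, against 6.62% and 1.22% of all genes tested, and 13 of 32 (40.6%) had an unadjusted p under 0.05, as had 27.2% of all genes. In 8 members every knockout lay above every control, as in 25.4% of all genes, and in 0 every knockout lay below, as in 8.31%. The 8 were Eif4a1, Eif4e, Ncl, Npm1, Mybbp1a, Pes1, Nop2 and Utp20. The 3 knockout libraries differed among themselves: knockout 1 was above all controls for all 32 members, knockout 3 for 22 and knockout 2 for 8. Without knockout 1 the median fell to 0.15 and 27 of 32 were positive. Without knockout 2, 7 members passed. Calls over all genes changed with the settings as well, from 181 to 942 higher.

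Among factors of ribosomal DNA transcription, Mybbp1a, a nucleolar MYB-binding protein that takes part in ribosomal RNA synthesis, was at 30.7, 32.7 and 35.2 TPM in the AT2 controls and at 55.3, 36.3 and 42.3 TPM in the knockouts. Every knockout lay above the controls, the lowest of them by a small margin (log2 fold change 0.41 ± 0.15 SE, adjusted p = 0.119, limma). Polr1b, the second largest subunit of RNA polymerase I, had a log2 fold change of 0.13 ± 0.12 (SE). Tcof1, the treacle protein that recruits the polymerase, had one of 0.04 ± 0.13 (SE).

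Nucleolin (Ncl, chr1:86344719-86359400, minus strand) organises the nucleolus and binds pre-ribosomal RNA. Its AT2 controls were tightly grouped at 74.7, 74.9 and 73.4 TPM, and its knockouts were at 128, 86.2 and 102 TPM. The groups did not overlap (log2 fold change 0.48 ± 0.13 SE, adjusted p = 0.0648, limma). Npm1, the chaperone nucleophosmin, was at 334, 328 and 316 TPM in controls and at 576, 371 and 366 TPM in knockouts, so its knockout mean leaned on knockout 1 (0.39 ± 0.17 SE, adjusted p = 0.181, limma). Gnl3, the GTP-binding nucleostemin, had the largest log2 fold change of the members in this table, 0.56 ± 0.25 (SE), but 1 knockout, at 15.7 TPM, lay within the controls (15.5 to 16.4 TPM). Ddx21, a nucleolar RNA helicase, had a log2 fold change of 0.21 ± 0.15 (SE).

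Among the snoRNP proteins knockout 1 was the highest library for all 5. Nop58, a core protein of the box C/D particles that guide ribosomal RNA methylation, was at 31.8, 30.4 and 35.8 TPM in controls and at 56.2, 35.5 and 47.8 TPM in knockouts, with 1 knockout inside the control range (0.48 ± 0.16 SE, adjusted p = 0.102, limma). Fbl, the methyltransferase fibrillarin of the same particles, had a log2 fold change of 0.41 ± 0.17 (SE), and its partner Nop56 one of 0.17 ± 0.11 (SE). Dkc1, the pseudouridine synthase dyskerin, and Nolc1, a snoRNP assembly chaperone, had 0.15 ± 0.11 and 0.10 ± 0.10 (SE).

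Of the small-subunit factors, Rrp12 had a log2 fold change of 0.53 ± 0.23 (SE), Rrp9, a protein that binds a processing snoRNA, 0.47 ± 0.17 (SE), and Utp20, a large processome scaffold, 0.28 ± 0.12 (SE). For the large subunit, Pes1, which forms with Bop1 and Wdr12 a complex for ribosomal RNA maturation, was at 45.7, 45.8 and 46.1 TPM in controls and at 63.7, 51.7 and 53.6 TPM in knockouts. All 3 Pes1 knockouts stood clear of the controls (0.28 ± 0.09 SE, adjusted p = 0.0967, limma). The other large-subunit members, namely Bop1, Wdr12, the ribosomal RNA methyltransferase Nop2, the assembly factors Nop16, Nip7 and Ppan, and the helicase Ddx18, had log2 fold changes between 0.04 (Nip7) and 0.28 (Wdr12). Ipo4, an importin that carries proteins into the nucleus, had one of 0.27 ± 0.19 (SE).

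Eif4a1, the RNA helicase of the translation initiation complex (chr11:69666936-69672423, minus strand), had the smallest p of the members in AT2 cells. It was at 342, 382 and 364 TPM in controls and at 589.7, 428 and 540.3 TPM in knockouts. Every knockout lay above every control, and the result missed the threshold narrowly (0.51 ± 0.13 SE, adjusted p = 0.0514, limma). Eif4e, which binds the messenger RNA cap, had 0.21 ± 0.08 (SE) with no overlap of the groups. Odc1, the rate-limiting enzyme of polyamine synthesis, was at 76.0, 90.7 and 91.7 TPM in controls and at 137, 91.4 and 116 TPM in knockouts, with 1 knockout inside the control range (0.40 ± 0.15 SE, adjusted p = 0.134, limma). Srm, which makes spermidine, and Shmt2, the mitochondrial serine hydroxymethyltransferase, had 0.55 ± 0.26 and 0.55 ± 0.25 (SE), both with knockout 2 inside the control range. Cad, which starts pyrimidine synthesis, had 0.24 ± 0.18 (SE). The mitochondrial chaperonin Hspd1 and its co-chaperonin Hspe1 had 0.29 ± 0.23 and 0.04 ± 0.23 (SE).

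**Figure D1:**
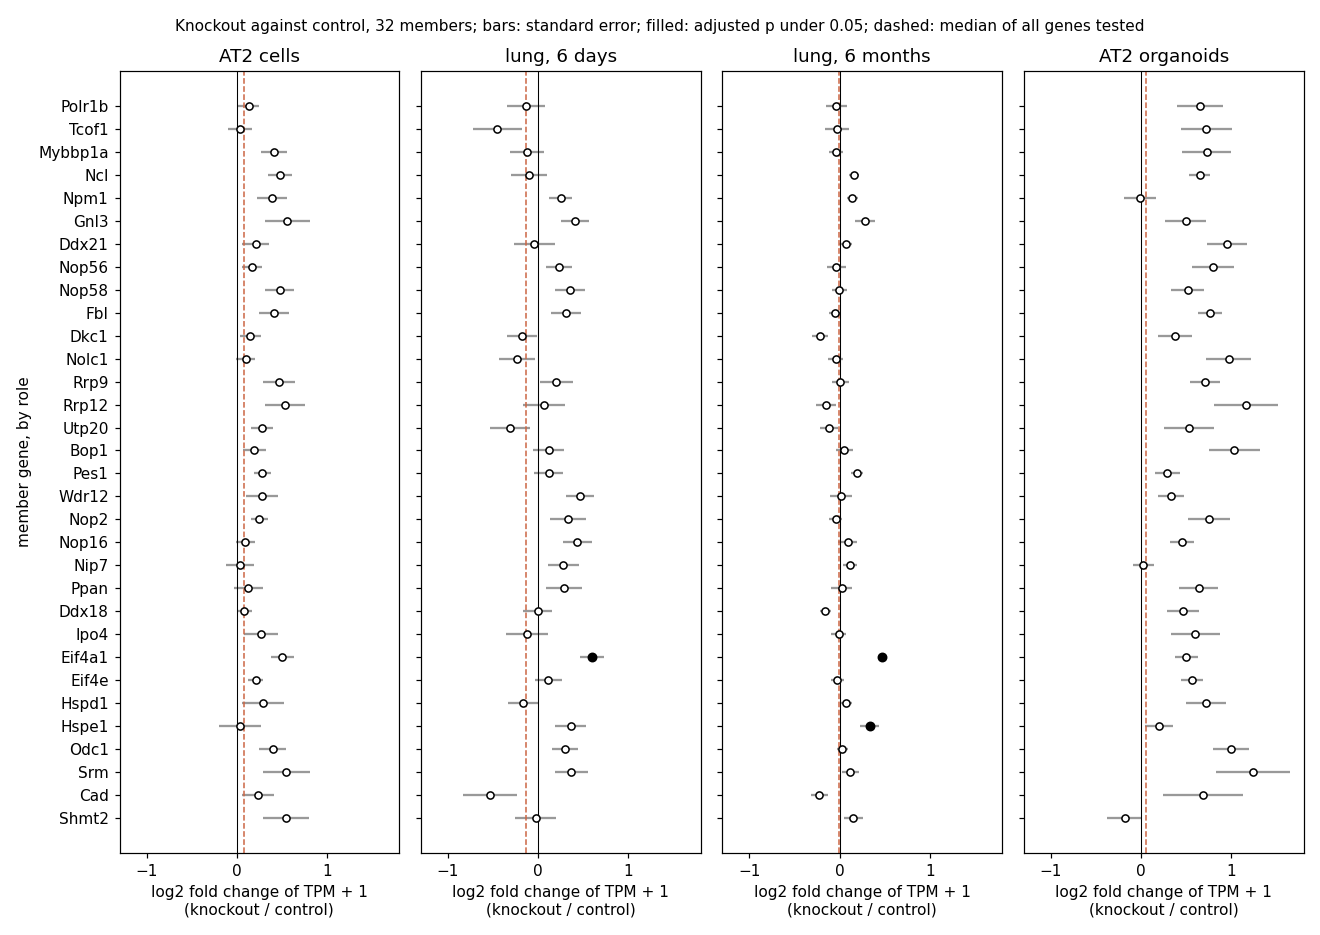
Log2 fold change of TPM + 1 (knockout against control) for the 32 members, ordered by role, in each of the 4 tables. Points are limma estimates and bars their standard errors, filled points have an adjusted p under 0.05, and the dashed line is the median of all genes tested; all 32 points are right of 0 in AT2 cells and 30 in organoids, while the lungs hold points on both sides.

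Other gene groups differed between the AT2 groups as well. Of 20 markers of dividing cells, 19 rose and 0 fell, and their summed level was 779 to 833 TPM in controls and 1279 to 1487 TPM in knockouts. The summed level of 13 alveolar macrophage markers was 39.5 to 75.3 TPM in controls and 164 to 306 TPM in knockouts, with 6 of the 10 tested markers higher. The 12 AT2 markers summed to 255508 to 272094 TPM in controls and 168928 to 244634 TPM in knockouts, with 0 passing. The 6 pan-leukocyte markers summed to 9.55 to 39.5 TPM in controls and 54.0 to 93.6 TPM in knockouts, with 2 higher. Sums were also higher for markers of monocytes and interstitial macrophages (151 to 205 against 277 to 456 TPM) and erythrocytes (81.3 to 160 against 285 to 481 TPM). The part of these groups in the members' values was not tested.

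In organoids, grown from AT2 cells of 2 mice per genotype, the members had a larger median fold change than in the other tables, but none passed the test over all genes. Of the 32, 30 had a positive log2 fold change, with a median of 0.64 and a range of -0.18 to 1.24, against a median of 0.06 and 54.9% positive over the 12406 genes tested. By limma 0 of 32 passed as higher and 0 as lower, where 0.218% and 0.387% of all genes tested did, and 17 of 32 (53.1%) had an unadjusted p under 0.05, as had 36.5% of all genes. Both knockouts lay above both controls in 28 members, as in 39.6% of all genes, and both below in 0, as in 32% of all genes. The exceptions were Npm1, Nip7, Cad and Shmt2. Knockout 2 was the highest library for 31 members, and control 2 the lowest for 28. A fit without control 1 or control 2 leaves a lone control that is assumed to vary like the knockouts, so its calls are not read as results. The median was 0.85 without control 1 and 0.38 without control 2.

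Fbl had the smallest p of the members in organoids. It was at 93.9 and 89.0 TPM in controls and at 142 and 171 TPM in knockouts, a clear separation of the groups (0.76 ± 0.13 SE, adjusted p = 0.0684, limma). Ncl was at 117 and 114 TPM in controls and at 170.3 and 195 TPM in knockouts (0.65 ± 0.12 SE, adjusted p = 0.0699, limma). Both genes had control libraries close together, with control 2 the lower.

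Odc1 was at 60.1 and 45.9 TPM in organoid controls and at 93.6 and 119.9 TPM in knockouts (1.00 ± 0.20 SE, adjusted p = 0.0706, limma). Eif4e was at 37.4 and 37.6 TPM in controls and at 51.95 and 59.96 TPM in knockouts (0.56 ± 0.12 SE, adjusted p = 0.0715, limma). In both, the lower knockout exceeded the higher control by more than the controls differed from each other. Rrp9 was at 19.2 and 15.4 TPM in controls and at 26.6 and 31.03 TPM in knockouts (0.71 ± 0.16 SE, adjusted p = 0.0758, limma). Ddx21 was at 36.3 and 25.1 TPM in controls and at 54.0 and 65.2 TPM in knockouts, with the controls themselves far apart (0.95 ± 0.22 SE, adjusted p = 0.0758, limma).

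Across roles, all 9 role groups had a positive median in organoids. The 3 ribosomal DNA transcription factors had log2 fold changes of 0.65 (Polr1b), 0.72 (Tcof1) and 0.72 (Mybbp1a). Among snoRNP proteins Nolc1 had 0.97 ± 0.25 (SE), Nop56 0.79, Nop58 0.52 and Dkc1 0.37. Rrp12 and Utp20 had 1.16 ± 0.36 (SE) and 0.54 ± 0.28 (SE). In the large-subunit group Bop1 had 1.03 ± 0.28 (SE) and its complex partners Pes1 and Wdr12 0.29 and 0.34, with Nop2 at 0.75, Ppan at 0.64, Ddx18 at 0.46 and Nop16 at 0.45. Srm had the largest fold change of the members, 1.24 ± 0.41 (SE), from control values of 59.6 and 28.6 TPM that lay far apart. Gnl3, Ipo4, Hspd1 and Hspe1 had 0.49, 0.60, 0.72 and 0.20, and Eif4a1, at 845 and 784 TPM in controls and 1099 and 1209.8 TPM in knockouts, had 0.50 ± 0.13 (SE, adjusted p = 0.08, limma). The 4 that overlapped were Npm1 (-0.01 ± 0.18 SE), Nip7 (0.03 ± 0.12 SE), Cad (0.69 ± 0.45 SE) and Shmt2 (-0.18 ± 0.19 SE).

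The 12 AT2 markers summed to 54574 and 17988 TPM in the organoid controls and to 90656 and 83319 TPM in the knockouts, so control 2 was lowest for these too. The 20 proliferation markers summed to 1385 and 1040 TPM in controls and 1876 and 2231 TPM in knockouts. The 6 pan-leukocyte markers summed to at most 4.45 TPM in any organoid library. The organoids also held airway cell transcripts, which differed between the groups. The 6 club and airway secretory cell markers summed to 18525 and 20010.3 TPM in controls and 8248 and 9143 TPM in knockouts, with 1 lower. The 7 ciliated cell markers summed to 81.4 and 153 TPM in controls and 23.1 and 17.4 TPM in knockouts, and for all 7 both knockouts lay below both controls, though 0 passed by limma (7 had an unadjusted p under 0.05). The part of the AT2, airway and proliferation markers in the members' values was not tested.

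**Figure D2:**
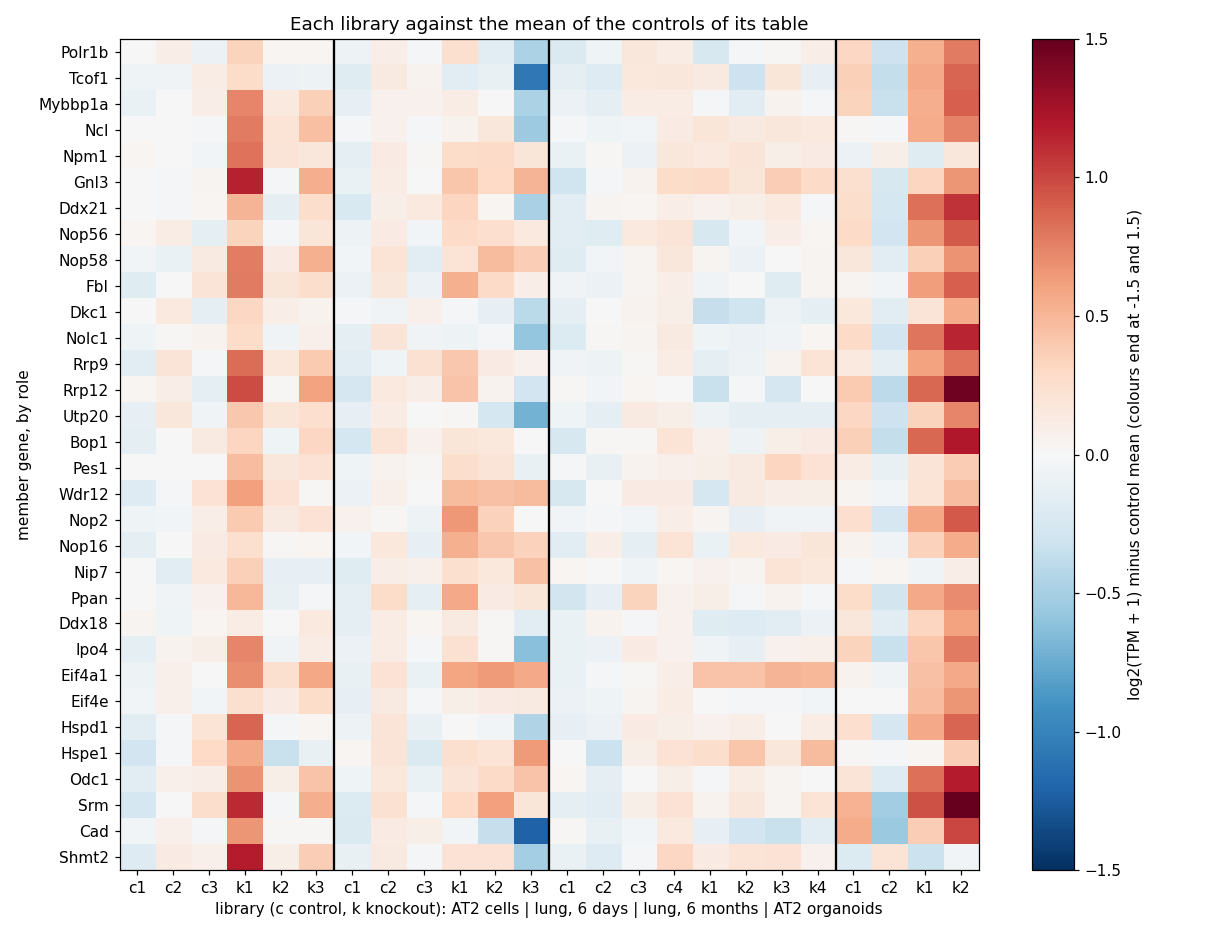
Each library's log2(TPM + 1) minus the mean of the controls of its table, for the 32 members in rows ordered by role and the 24 libraries in columns (c control, k knockout), with black lines between tables. AT2 knockout 1 is red for all 32 members, and organoid control 2 is blue for most while both organoid knockouts are red for most.

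The knockout effects in organoids and AT2 cells were compared in a joint limma fit of 11351 genes. In it 1 of 32 members had a larger effect in organoids and 0 a smaller one, against 4.48% and 6.61% of all genes. That member was Nolc1, with 23.98 and 15.8 TPM in organoid controls and 34.6 and 44.3 TPM in knockouts. Its log2 fold change was 0.87 ± 0.25 (SE) larger than in AT2 cells (adjusted p = 0.0494, limma). This call was lost in 11 of 16 other settings, with adjusted p from 0.00163 to 0.429.

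In whole lung at 6 days the members were mixed in direction and 1 of them rose. Of the 32, 19 had a positive log2 fold change, with a median of 0.12 and a range of -0.53 to 0.60, while the median of the 14154 genes tested was -0.14 and 35.8% were positive. By limma 1 passed as higher and 0 as lower, against 3.16% and 3.79% of all genes, and 4 of 32 (12.5%) had an unadjusted p under 0.05, fewer than the 25.2% of all genes. In 10 members every knockout lay above every control, as in 12.5% of all genes, and in 0 every knockout lay below, as in 23.7%. Median-ratio scaling moved the median of all genes by 0.13 (log2), and 5 members then passed as higher and 25 were positive. Without knockout 3 the member median was 0.22, 26 were positive and 4 passed. The median of all genes tested also moved in that fit, from -0.14 to 0.005. Calls over all genes changed with the settings too, from 41 to 3858 higher.

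The member that rose at 6 days was Eif4a1, at 301, 377 and 302 TPM in control lungs and at 489.9, 507 and 483 TPM in knockouts. The 3 knockouts were close to each other and far above the highest control (0.60 ± 0.13 SE, adjusted p = 0.0366, limma). The call was lost without control 1, control 3, knockout 1 or knockout 2 (adjusted p 0.0501 to 0.202) and held without control 2 or knockout 3. It was also lost without the variance trend (adjusted p = 0.0634, limma) and under the replicate block (adjusted p = 0.079, limma). Thus 6 of 16 other settings ended it. At 6 days the deviations of same-numbered controls and knockouts correlated at -0.154, 0.005 and -0.138.

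The next 5 members by p did not pass. Wdr12 was at 6.60, 7.45 and 7.10 TPM in controls and at 10.2, 9.88 and 10.1 TPM in knockouts (0.46 ± 0.16 SE, adjusted p = 0.12, limma). Nop16 was at 14.7, 17.1 and 13.9 TPM in controls and at 22.5, 20.5 and 19.7 TPM in knockouts (0.43 ± 0.16 SE, adjusted p = 0.145, limma). In both, the groups did not overlap and the knockouts were closely grouped. Gnl3 was at 17.3, 20.2 and 18.6 TPM in controls and at 25.2, 23.2 and 27.1 TPM in knockouts (0.41 ± 0.15 SE, adjusted p = 0.147, limma). Nop58 was at 27.6, 32.8 and 25.3 TPM in controls and at 32.9, 39.8 and 37.1 TPM in knockouts, with the lowest knockout barely above the highest control (0.35 ± 0.16 SE, adjusted p = 0.221, limma). Odc1 was at 79.2, 92.3 and 77.1 TPM in controls and at 94.3, 101 and 111 TPM in knockouts (0.30 ± 0.14 SE, adjusted p = 0.228, limma). The other members with separated groups were Npm1, Nop56, Nip7 and Hspe1.

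The 13 members with a negative value were Polr1b, Tcof1, Mybbp1a, Ncl, Ddx21, Dkc1, Nolc1, Utp20, Ddx18, Ipo4, Hspd1, Cad and Shmt2, and none had separated groups. Knockout 3 was the lowest of the 6 libraries for 15 members. In it Tcof1 was at 6.38 TPM, against 12.7 to 16.1 TPM in controls and 12.8 and 13.4 TPM in the other knockouts, and Cad at 3.90 TPM, against 8.79 to 11.4 TPM in controls. The log2 fold changes of Tcof1 and Cad were -0.45 ± 0.27 and -0.53 ± 0.30 (SE). The remaining members, Fbl, Rrp9, Rrp12, Bop1, Pes1, Nop2, Ppan, Eif4e and Srm, had positive values from 0.06 to 0.37 and groups that overlapped.

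Markers of several cell types differed between genotypes in the 6-day lungs. The 20 proliferation markers summed to 342 to 688 TPM in controls and 718 to 1061 TPM in knockouts, without overlap. All 20 had a positive log2 fold change, with a median of 1.04, and 1 rose. The 13 alveolar macrophage markers summed to 1619 to 1794 TPM in controls and 4077 to 13913 TPM in knockouts, with 6 higher and 3 lower. The 6 pan-leukocyte markers summed to 1284 to 1594 TPM in controls and 2070 to 2407 TPM in knockouts. The 6 club and airway secretory cell markers summed to 151908 to 175352 TPM in controls and 70047 to 86764 TPM in knockouts, with 4 lower. The 12 AT2 markers summed to 49646 to 56956 TPM in controls and 31638 to 40729 TPM in knockouts. The part of these cells and of dividing cells in the members' values was not tested.

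In whole lung at 6 months 2 members rose and 0 fell, where 15.9% and 13.9% of the 14177 genes tested did. Of the 32, 17 had a positive log2 fold change, or 9 after rescaling without the 50 most abundant genes, which moved the median of all genes by -0.10 (log2). The member median was 0.01 and the range -0.23 to 0.47, against a median of -0.01 and 49.1% positive over all genes, and 9 of 32 members (28.1%) had an unadjusted p under 0.05, below the 39.4% of all genes. In 4 members, Eif4a1, Ncl, Pes1 and Nip7, every knockout lay above every control (16.4% of all genes), and in 1, Cad, every knockout lay below (14.2%). The share of members called was thus below that of all genes in both directions.

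Eif4a1 was at 274, 289.6, 296 and 313 TPM in the 6-month control lungs and at 396, 396, 417 and 415 TPM in knockouts. No value of either group came near the other (0.47 ± 0.05 SE, adjusted p = 3.95e-05, limma). It passed in all 18 other settings, with adjusted p from 3.3e-05 to 0.000644. Hspe1 was at 112, 89.1, 119 and 130.2 TPM in controls and at 134, 149, 126 and 156 TPM in knockouts, with 1 knockout below the highest control (0.33 ± 0.11 SE, adjusted p = 0.0394, limma). This call was lost in 10 of 18 other settings, among them leaving out each library except control 4 and knockout 3. Hspd1, whose gene lies head to head with Hspe1 on chromosome 1 with 112 bases of exon overlap, was at 94.1, 95.8, 112 and 109 TPM in controls and at 107, 109.9, 102 and 111 TPM in knockouts (0.07 ± 0.07 SE). These libraries do not keep the strand, so reads in the overlap cannot be assigned to either gene.

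Ncl was at 57.2, 55.6, 56.4 and 63.5 TPM in 6-month controls and at 66.0, 64.1, 65.3 and 64.2 TPM in knockouts (0.16 ± 0.06 SE, adjusted p = 0.059, limma). Pes1 was at 33.1, 30.95, 34.6 and 35.3 TPM in controls and at 35.7, 36.9, 42.0 and 39.1 TPM in knockouts (0.19 ± 0.07 SE, adjusted p = 0.0643, limma). Both gaps between the groups were small, and neither gene passed. Gnl3 was at 13.7, 16.7, 17.7 and 20.8 TPM in controls and at 21.0, 19.5, 22.2 and 21.0 TPM in knockouts (0.28 ± 0.11 SE, adjusted p = 0.0842, limma). Ddx18 was at 31.1, 34.6, 33.0 and 35.0 TPM in controls and at 29.4, 29.0, 29.8 and 31.3 TPM in knockouts (-0.16 ± 0.06 SE, adjusted p = 0.0863, limma). Cad was at 9.81, 8.84, 9.36 and 10.8 TPM in controls and at 8.78, 7.71, 7.49 and 8.49 TPM in knockouts, separated by a narrow margin (-0.23 ± 0.09 SE, adjusted p = 0.095, limma). The rest lay between -0.22 (Dkc1) and 0.15 (Shmt2), on both sides of 0.

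The 13 alveolar macrophage markers summed to 799 to 1091 TPM in the 6-month controls and 5039 to 8601 TPM in knockouts, with 8 higher and 3 lower. The 12 AT2 markers summed to 30764 to 32823 TPM in controls and 41948 to 50928 TPM in knockouts, with 9 higher, and all 8 endothelial markers fell. The 20 proliferation markers, 19 of them tested, summed to 208 to 281 TPM in controls and 263 to 293 TPM in knockouts, so their ranges overlapped. The part of these cells in the members' values was not tested.

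**Figure D3:**
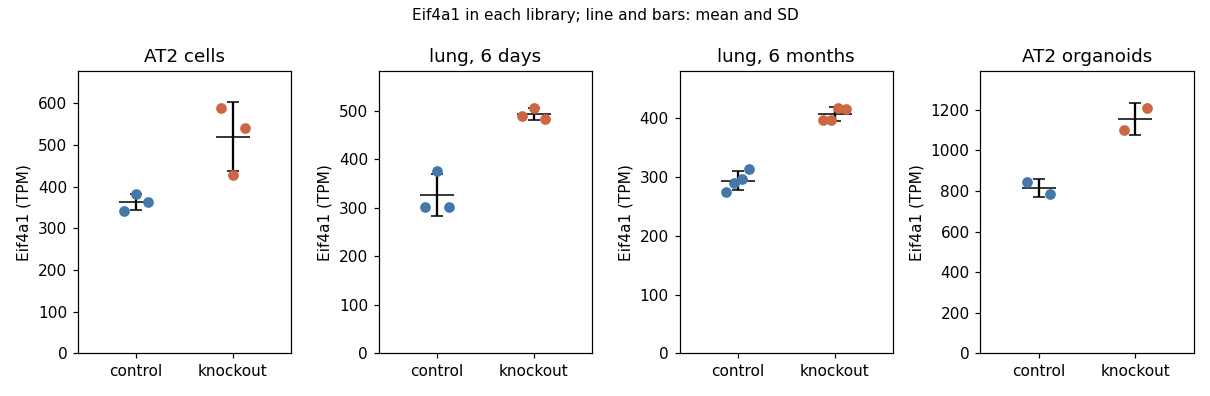
Eif4a1 (TPM) in each library of the 4 tables, with the mean and SD of each genotype in black and each vertical axis starting at 0. Every knockout is above every control in all 4 tables, for example 396 TPM or more against 313 TPM or less in lungs at 6 months.

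Eif4a1 was the only member whose knockouts exceeded all controls in all 4 tables, with log2 fold changes of 0.51 (AT2 cells), 0.60 and 0.47 (lungs at 6 days and 6 months) and 0.50 (organoids). This pattern was shown by 1.39% of the 11126 genes tested in all 4 tables. Of the 8 members separated in this way in AT2 cells, 7 were among the 28 separated in organoids, all but Npm1. These were 21.9% of the members, against 14.1% of the genes tested in both tables. With 28 of the 32 members separated in organoids, a large overlap follows from the counts alone. The AT2 set shared Eif4a1 and Npm1 with the 10 separated in lungs at 6 days, or 6.25% of the members against 5.86% of genes. Log2 fold changes were positive in every table for 12 members (37.5%) and for 15.1% of genes. The effects in AT2 cells and 6-day lungs were compared in a joint limma fit of 11766 genes, in which 0 members passed as larger and 0 as smaller, against 0.102% and 0.102% of all genes. For lungs at 6 months against lungs at 6 days, over 13875 genes, 0 passed as larger and 0 as smaller, against 1.72% and 0.187%. A member that passed in 1 table and not in another is therefore not shown to differ between them.

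Eif4a1 shared 31.1% of its 31-base words with transcripts of other annotated genes, among them 8 pseudogenes, and for Ddx18, Ipo4 and Hspd1 the shares were 65.5%, 53.1% and 50.1%. The sources used here do not say how such reads were assigned, so these 4 levels are uncertain, as are those of the 6 other members that shared over 20% (Pes1, Odc1, Npm1, Hspe1, Nop56 and Fbl). In Ipo4 the words are shared with 1 gene, Gm49378. For 11 members exons overlapped those of a gene on the other strand, over at most 7.60% of their exon bases.

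**Figure D4:**
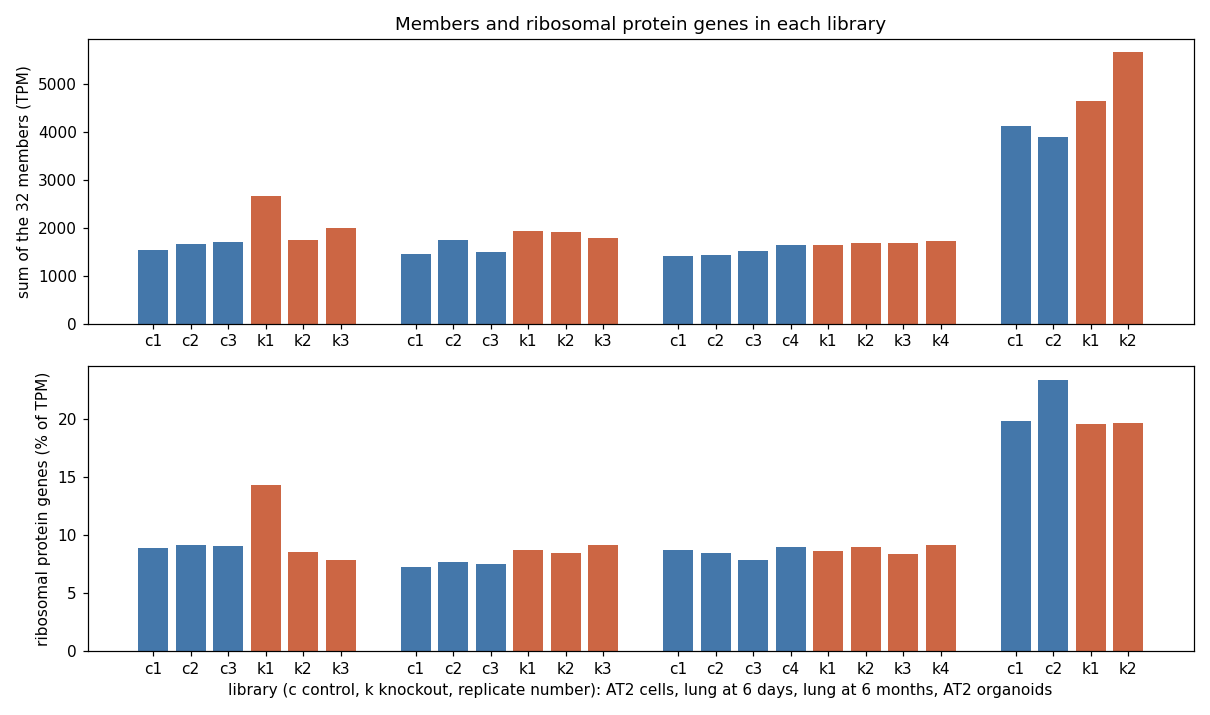
Summed TPM of the 32 members (top) and the share of TPM in ribosomal protein genes (bottom) in each of the 24 libraries, controls blue and knockouts orange, on axes that start at 0. The member sums of knockouts exceed those of controls in every table, but without Eif4a1 they overlap in all tables except organoids, while the ribosomal protein share of AT2 cells is high in knockout 1 only and organoid control 2 has the highest share of all.

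The members summed to 1541 to 1704 TPM in AT2 controls and 1748 to 2661 TPM in knockouts, to 1452 to 1733 and 1780 to 1941 TPM in lungs at 6 days, to 1402 to 1639 and 1649 to 1718 TPM in lungs at 6 months, and to 3890 to 4112 and 4643 to 5657 TPM in organoids. These sums are led by Npm1 and Eif4a1, the most abundant members. Leaving out Eif4a1 ended the separation of the groups in 3 of the 4 tables. The other members were not left out in turn, so this is not shown to be particular to Eif4a1. Without Eif4a1 the sums were 1199 to 1340 and 1319.8 to 2071 TPM in AT2 cells, 1151 to 1356 and 1298 to 1451 TPM in lungs at 6 days, and 1128 to 1326 and 1253 to 1302 TPM in lungs at 6 months, so controls and knockouts overlapped. In organoids they stayed apart, at 3267 and 3106 TPM in controls and 3544 and 4447 TPM in knockouts. Organoid controls thus held more of these transcripts than AT2 controls, a gap set across tables, which Npm1 shows with 1404 and 1574 TPM against 316 to 334 TPM.

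The wider pathway was read from 12 further lists, which name 286 genes beside the 32 members. In AT2 cells 15 of the 278 tested rose and 1 fell (5.4% and 0.36%, below the 6.62% and 1.22% of all genes). At 6 days in lungs 7 of 279 rose and 1 fell (2.51% and 0.358%, against 3.16% and 3.79%). In lungs at 6 months 39 of 279 rose and 13 fell (14.0% and 4.66%, against 15.9% and 13.9%). In organoids 0 of 280 passed in either direction by limma, against 0.218% and 0.387% of all genes. An unadjusted p under 0.05 was found for 125 of the 280, and for 36.5% of all genes tested.

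Since the shares that passed are no higher than those of all genes, the calls are listed as single genes. In AT2 cells, of 49 further small-subunit genes 5 rose and 0 fell, with a median log2 fold change of 0.19. Besides the helicase Ddx47 (log2 fold change 0.35 ± 0.09 SE), Nop9, an RNA-binding factor of the small-subunit precursor, went from 9.06 ± 0.415 to 13.1 ± 1.30 TPM (SD, n = 3 and 3; adjusted p = 0.0337, limma). Of 56 further large-subunit genes 1 rose, Rpf2, which brings in the 5S ribonucleoprotein, from 9.47 ± 0.371 to 14.4 ± 1.14 TPM (SD, n = 3 and 3; adjusted p = 0.0188, limma). Of 13 further snoRNP genes 1 fell, Nop10, a core protein of the pseudouridylation particles, from 121 ± 9.88 to 90.4 ± 8.44 TPM (SD, n = 3 and 3; adjusted p = 0.0431, limma). Of 39 further genes often listed as MYC targets 4 rose, among them the mitochondrial peroxiredoxin Prdx3 (log2 fold change 0.67 ± 0.09 SE) and the replication helicase subunit Mcm5, from 29.8 ± 1.42 to 49.8 ± 6.19 TPM (SD, n = 3 and 3; adjusted p = 0.009, limma). Mcm5 is also a gene of dividing cells. Single genes also rose among the initiation factors (Eif4e2, a cap-binding homologue, 0.46 ± 0.10 SE), nucleotide synthesis (Tyms, thymidylate synthase, 0.55 ± 0.13 SE) and mitochondrial protein folding (Timm44, of the import motor, 0.37 ± 0.09 SE). No gene of the RNA polymerase I, exosome, polyamine or mTORC1 lists passed, nor did any of 83 ribosomal protein genes.

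In lungs at 6 days Nhp2, a core protein of the pseudouridylation snoRNPs, rose from 31.2 ± 3.04 to 52.4 ± 5.92 TPM (SD, n = 3 and 3; adjusted p = 0.0326, limma). It also rose in lungs at 6 months, from 29.4 ± 3.10 to 38.8 ± 2.32 TPM (SD, n = 4 and 4; adjusted p = 0.00416, limma). In AT2 cells and organoids its knockouts lay above the controls without passing (adjusted p = 0.169 and 0.0664, limma). Arg1, the arginase that feeds ornithine to Odc1, had the largest rise of the listed genes at 6 days, from 4.66 ± 2.07 to 170.2 ± 131 TPM (SD, n = 3 and 3; adjusted p = 0.0043, limma). Arg1 is also a gene of activated macrophages, whose marker sums in the same lungs are given above. Sat1, which acetylates polyamines for breakdown, rose as well (0.88 ± 0.18 SE). Of the 39 further MYC-target genes 4 rose, with the nucleoside diphosphate kinase Nme1 at 0.92 ± 0.16 (SE), and 1 fell, the transferrin receptor Tfrc, at -1.299 ± 0.22 (SE). Of 82 ribosomal protein genes 2 rose, Rpl41 and Rps2.

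At 6 months 5 of 13 further polyamine genes rose and 1 fell, with Sat1 at 0.71 ± 0.08 (SE) and the polyamine oxidase Paox at 0.62 ± 0.11 (SE). Of 39 further MYC-target genes 11 rose and 2 fell, with the fatty acid synthase Fasn at 0.80 ± 0.08 (SE) and Tfrc at -0.93 ± 0.08 (SE). Among 22 nucleotide and serine synthesis genes 5 rose and 2 fell, with the CTP synthase Ctps at 0.74 ± 0.08 (SE) and the IMP dehydrogenase Impdh1 at -0.54 ± 0.05 (SE). Ribosome assembly genes moved in both directions. The large-subunit factors Nsa2 and Sbds were at 0.28 ± 0.05 and -0.18 ± 0.05 (SE), with 2 of 56 higher and 1 lower. The small-subunit factors Nop9 and Dimt1 were at 0.27 ± 0.09 and -0.30 ± 0.09 (SE), with 3 of 49 higher and 1 lower. Of 13 snoRNP genes 1 rose and 2 fell, among them the assembly helicase Ruvbl2 at -0.24 ± 0.06 (SE). Of 19 RNA polymerase I genes 2 rose, the subunits Polr1c and Polr1d, at 0.23 ± 0.06 and 0.20 ± 0.05 (SE), and 1 fell. The exosome subunit Exosc5 was the 1 of 14 exosome genes that rose, at 0.43 ± 0.06 (SE). Among 15 initiation factor genes 2 rose, with Eif4b at 0.24 ± 0.06 (SE), and 3 fell, with Eif4g3 at -0.38 ± 0.08 (SE). The prohibitin Phb2 was the 1 of 13 mitochondrial folding genes that rose, at 0.27 ± 0.07 (SE). Cdkn2a, the locus of an MDM2-binding nucleolar protein and a cell-cycle inhibitor, and Rheb, the activator of mTORC1, rose by 0.82 ± 0.11 and 0.20 ± 0.06 (SE). Of 82 ribosomal protein genes 6 rose, among them Rpl23 at 0.21 ± 0.04 (SE) and Rps27l at 0.20 ± 0.04 (SE).

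In organoids the further lists differed from each other. The median log2 fold change was 0.39 over 49 small-subunit genes, 0.35 over 56 large-subunit genes, 0.50 over 14 exosome genes and 0.54 over 40 MYC-target genes. It was -0.01 over 15 initiation factor genes and -0.11 over 82 ribosomal protein genes, of which 36 had both knockouts below both controls and 16 had both above.

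The MYC network itself did not follow 1 pattern. Myc was at 12.002 ± 4.68 TPM in AT2 controls and 19.997 ± 16.7 TPM in knockouts (SD, n = 3 and 3; adjusted p = 0.573, limma). In lungs it was at 10.6 ± 1.94 and 17.5 ± 1.39 TPM at 6 days (SD, n = 3 and 3; adjusted p = 0.0667, limma). At 6 months it rose from 8.37 ± 1.19 to 13.9 ± 1.54 TPM (SD, n = 4 and 4; adjusted p = 0.00129, limma). In organoids both knockouts were below both controls, at 15.2 ± 3.14 against 23.2 ± 5.89 TPM (SD, n = 2 and 2; adjusted p = 0.169, limma). Mycn, a paralogue of Myc, rose in AT2 cells from 0.708 ± 0.271 to 1.96 ± 0.242 TPM (SD, n = 3 and 3, adjusted p = 0.0345, limma). Its control mean was under the 1 TPM of the filter, so the knockouts alone let Mycn into the test. Both Mycn levels lie near the floor, and the call is given as a description. Mlx, a MAX-like partner in the wider network, rose in AT2 cells from 42.6 ± 0.278 to 53.8 ± 3.99 TPM (SD, n = 3 and 3; adjusted p = 0.0449, limma) and by 0.21 ± 0.07 (log2, SE) in lungs at 6 months. In organoids Mycn was at 7.64 ± 7.98 and 17.8 ± 3.00 TPM (SD, n = 2 and 2; adjusted p = 0.223, limma). The MAX-binding repressors Mxi1 and Mnt both rose in lungs at 6 months (log2 fold changes 0.39 ± 0.07 and 0.47 ± 0.11 SE; adjusted p = 0.001 and 0.00824, limma).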

How the data were processed

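RNA-seq libraries were made with TruSeq chemistry from poly(A) RNA and do not keep the strand, per the labels' protocols. The authors deposited 1 table of length-normalized transcript abundances (TPM) for each of the 4 sample types, on build GRCm38 per the submitters' processing notes; no source used here names the aligner or quantifier. Of 24972 rows in each, 2 rows with a repeated symbol were left out. Read depth cannot be recovered from TPM. From them log2(TPM + 1) was fitted per table with limma 3.58.1 (R 4.3.3; variance trend, Benjamini-Hochberg adjustment over all genes tested). A gene was tested if the number of libraries at 1 TPM or more was no lower than the size of the smaller group. Differences of effects were tested in joint limma fits with a weight per table. The fits were checked on simulated data: the organoid fit recovered none of the changes put in, and the difference test made more false calls than its threshold implies. Values in every library are given, in each table, for the 6 members with the smallest p, and for further members chosen after their values were seen; of each other list the 2 genes of smallest p that passed are named. The members and lists were chosen with earlier results of these data known. Alternatives covered scaling, pseudocount, filter, variance model, library weights, replicate block and each library left out.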

Additional observations from a re-analysis of the deposited data

Results flagged for a closer look

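In lungs at 6 months Utp20 was at 5.94 TPM in knockout 1, apart from the other 3 knockouts at 5.61 to 5.65 TPM. Wdr12 was at 6.01 TPM in the same library, against 7.89 to 8.16 TPM in the other 3 knockouts. Nop2 was at 17.9 TPM in control 4, against 16.2 to 16.5 TPM in the other 3 controls. These are 3 of 64 groups of 4 libraries examined for a sample far from the others, and chance flags about 1 in 20 groups. The log2 fold change of Nolc1 was 0.87 larger in organoids than in AT2 cells in the joint limma fit.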

How the results depend on the processing

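Of 384 values of single members under other settings 329 kept their direction and their side of the threshold and 0 reversed. Among sorted AT2 cells 1 member passed as higher with a filter at 5 TPM, 1 with library weights and 0 to 7 with a library left out (7 without knockout 2). In lungs at 6 days 5 passed under median-ratio scaling, 4 under quantile normalization, 15 with library weights (2 lower), 0 without the variance trend and 0 to 4 with a library left out (4 without knockout 3). In lungs at 6 months 5 passed under median-ratio scaling, 1 under quantile normalization (3 lower), 1 after rescaling without the 50 most abundant genes (3 lower, member median -0.085), 1 without the variance trend and 1 to 6 with a library left out (6 without control 4). In organoids 0 to 26 passed with a library left out. Each of these organoid fits leaves a lone library in a group, which is assumed to vary like the other group. The organoid range is therefore no evidence that members changed. For lungs at 6 months against 6 days 1 member had a smaller effect under median-ratio scaling. With a library left out 0 to 1 had a smaller effect (1 without knockout 3 at 6 days). For organoids against AT2 cells 0 had a larger effect with each table's own spread per gene, and 0 at a pseudocount of 0.1. The own-spread alternative was chosen after seeing the data. The count of members with a larger effect changed in 12 of 16 other settings. The causes were not tested. Over all genes the calls with a library left out or another setting ranged from 181 to 942 higher in sorted AT2 cells. They ranged from 41 to 3858 higher in lungs at 6 days and from 1750 to 2435 in lungs at 6 months.

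Correlations of same-numbered control and knockout samples were low and of both signs (-0.173 to 0.217), so pairing by replicate number was not shown across the tables. In organoids, with 2 libraries per group, every correlation has the same size by construction (0.0737), so nothing can be read from them. With the replicate block 0 members passed in lungs at 6 days, where Eif4a1 had an adjusted p of 0.079 (limma), 0 in AT2 cells, 3 in lungs at 6 months, 0 in organoids, and 0 had a larger effect in organoids than in AT2 cells. In lungs at 6 months every control correlated best with the knockout of its own number, a hint from the data and not from the design; this did not hold in the other tables.

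Unknown read depth and few libraries limit these values: the organoid groups have 2 mice each, AT2 libraries are pools, and whole lungs mix cell types whose shares differ between genotypes.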
